A study of Mus musculus with 9 samples.

Results

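The genes described here are 10 regulators of the G1 phase of the cell cycle, taken as a named list: the D cyclin genes Ccnd1, Ccnd2 and Ccnd3, the kinase genes Cdk4 and Cdk6, the inhibitor genes Cdkn1b, Cdkn1c and Cdkn2b, the cyclin E gene Ccne1 and the retinoblastoma gene Rb1. Each symbol matched 1 Ensembl gene in the count tables. The list makes up 10 of 46517 genes counted and 10 of the 14870 genes with enough counts to be tested, so no member was lost to the expression filter. Messenger RNA was profiled in mouse intestinal stem cell colonies on day 4 of culture in each of 3 matrices (3 libraries apiece): a non-degradable polyethylene glycol (PEG) hydrogel, a degradable PEG hydrogel, and Matrigel, a basement membrane extract of a mouse tumour. All 3 groups were expanded with R-spondin, noggin, EGF, the GSK3 inhibitor CHIR99021 and valproic acid. No genotype, strain or age is given in the labels. Nothing in the labels says that libraries of the same matrix stem from separate cultures or animals. The p-values therefore measure the spread among these libraries alone, and that spread may be technical.

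A cell leaves G1 when D cyclins bind Cdk4 or Cdk6 and these kinases phosphorylate the retinoblastoma protein, which otherwise holds back E2F transcription factors. Freed E2F raises cyclin E, the partner of Cdk2, together with the genes of DNA synthesis. Inhibitors of the Ink4 family, such as p15 from Cdkn2b, bind Cdk4 and Cdk6 directly, while Cip/Kip proteins, such as p27 from Cdkn1b and p57 from Cdkn1c, act mainly on Cdk2 complexes. In the intestine this step is part of how the division of crypt stem cells is controlled, and D cyclins are known there as genes that respond to Wnt signalling and growth factors.

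Each library held between 38016227 and 47211981 reads assigned to genes. Levels are given in CPM, a gene's reads scaled to a library of 1000000 reads with edgeR's TMM factors, and a gene counts as changed when its adjusted p in the edgeR quasi-likelihood test was under 0.05. The stem cell marker Lgr5 averaged 198 ± 15.9 CPM in non-degradable PEG, 155 ± 27.2 CPM in degradable PEG and 195 ± 28.0 CPM in Matrigel (SD, n = 3 each). The 8 stem cell markers together summed to 2401 to 2472 CPM in non-degradable PEG and 2855 to 3047 CPM in degradable PEG, wholly below the 3199 to 3355 CPM of Matrigel. Of these 8 genes, 2 were higher and 3 lower in non-degradable PEG against Matrigel, and 2 higher and 1 lower in degradable PEG against Matrigel. The epithelial marker Epcam averaged 1169.5 ± 49.6 CPM in non-degradable PEG, 1144 ± 54.8 CPM in degradable PEG and 1278 ± 46.5 CPM in Matrigel. The 7 epithelial markers together summed to 5352 to 6425 CPM in non-degradable PEG and 5833 to 6584 CPM in degradable PEG, wholly above the 5028 to 5318 CPM of Matrigel, with 3 genes higher in non-degradable PEG, 5 higher in degradable PEG and 0 lower in either. Stem cell and epithelial markers were well represented in every library. The 7 mesenchymal markers summed to 7.24 to 8.62 CPM in non-degradable PEG, 5.29 to 9.43 CPM in degradable PEG and 5.07 to 8.32 CPM in Matrigel, and 3 of them had no count in any library. The 6 blood cell markers summed to 4.39 to 6.18 CPM in non-degradable PEG, 3.94 to 4.21 CPM in degradable PEG and 2.57 to 3.10 CPM in Matrigel. The summed levels of Paneth, goblet and enteroendocrine markers were higher in Matrigel than in either PEG gel. The 9 Paneth cell markers summed to 313 to 499.8 CPM in non-degradable PEG and 367 to 405 CPM in degradable PEG, against 846 to 1692 CPM in Matrigel. The 7 goblet cell markers summed to 188 to 254 CPM in non-degradable PEG and 134 to 197 CPM in degradable PEG, against 569 to 1035 CPM in Matrigel. The 8 enteroendocrine markers summed to 22.2 to 27.2 CPM in non-degradable PEG and 25.8 to 36.5 CPM in degradable PEG, against 92.0 to 152 CPM in Matrigel. Lower than in Matrigel were 7 Paneth, 3 goblet and 6 enteroendocrine markers in non-degradable PEG, and 7 Paneth, 4 goblet and 6 enteroendocrine markers in degradable PEG. Higher than in Matrigel were 1 enteroendocrine marker in non-degradable PEG and 1 Paneth marker in degradable PEG. Of 4 tuft cell markers tested, 3 were lower in each PEG gel. The 9 enterocyte markers summed to 286 to 416 CPM in non-degradable PEG, 181 to 208 CPM in degradable PEG and 289 to 421 CPM in Matrigel. Of these 9, 2 were higher and 2 lower in non-degradable PEG against Matrigel, 4 were lower in degradable PEG against Matrigel, and 5 were higher in non-degradable than in degradable PEG. The part of these cell type markers in the results that follow was not tested, and in bulk samples fewer cells of a type and less RNA per cell cannot be told apart.

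Of the 10 members, 5 differed between non-degradable PEG and Matrigel: Cdkn2b, Ccnd2, Rb1 and Ccnd1 were higher in the PEG gel and Cdk4 was lower. Cdkn2b, Ccnd2 and Ccnd1 were also higher in degradable PEG than in Matrigel, and no member passed the test between the PEG gels. Over all tested genes, 9.71% were higher and 7.13% lower in non-degradable PEG against Matrigel, 7.42% were higher and 4.79% lower in degradable PEG than in Matrigel, and 0.814% were higher and 0.464% lower in non-degradable than in degradable PEG. Among the 10 members, 4 were higher and 1 lower in non-degradable PEG against Matrigel, and 3 were higher and 0 lower in degradable PEG against Matrigel (0 lower also at an unadjusted p under 0.05 and with DESeq2). The median log2 fold change of the members was 0.18 for non-degradable PEG against Matrigel, 0.19 for degradable PEG against Matrigel and -0.01 for non-degradable against degradable PEG, while that of all tested genes lay between -0.02 and 0.00. The list was chosen with earlier results of these data known. Its counts and medians beside those of all genes are therefore a description and not a test. The count of 5 for non-degradable PEG against Matrigel was 2 without Matrigel replicate 1, and it was 3 when Matrigel replicate 2 or non-degradable PEG replicate 2 or 3 was left out. It was 7 without degradable PEG replicate 1, and also 7 in the fit of only the 2 compared matrices. The count of 3 for degradable PEG against Matrigel was 1 without Matrigel replicate 1 or 3, and 5 without degradable PEG replicate 1. With the replicate number as a block, 6 members were changed between non-degradable PEG and Matrigel and the count over all genes was 3877, against 2504 without it. In the test over all 3 matrices 16.3% of genes were changed, and 3 members were among them: Cdkn2b (adjusted p = 0.000548), Ccnd2 (0.00175) and Ccnd1 (0.0199), or 5 members without degradable PEG replicate 1. The comparisons with Matrigel share its 3 libraries, so they are not independent of each other.

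RefSeq start site windows on GRCm38.p6, which run from 250 bases before to 50 bases after a start, were at hand for 6 of the 10 members: Ccnd3, Cdk4, Cdk6, Cdkn1b, Cdkn2b and Ccne1. The windows of Cdkn2b and Cdk4 are printed because these are the members with a window whose level differed between matrices, 1 upwards and 1 downwards in PEG. Capitals mark matches, on either strand, to TGACGTCA (the cyclic AMP response element, CRE), CACGTG (the E-box bound by Myc and its partner Max) and GGGCGG (the GC box), with no overlap between matches of different motifs.
Cdkn2b, chr4:89310983-89311282, minus strand: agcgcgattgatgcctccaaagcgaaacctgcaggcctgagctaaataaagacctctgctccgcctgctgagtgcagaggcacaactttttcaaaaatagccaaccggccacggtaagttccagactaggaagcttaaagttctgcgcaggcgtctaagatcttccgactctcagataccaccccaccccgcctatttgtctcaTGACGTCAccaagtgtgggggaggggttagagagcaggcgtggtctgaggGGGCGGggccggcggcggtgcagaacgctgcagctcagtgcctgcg
Cdk4, chr10:127063285-127063584, plus strand: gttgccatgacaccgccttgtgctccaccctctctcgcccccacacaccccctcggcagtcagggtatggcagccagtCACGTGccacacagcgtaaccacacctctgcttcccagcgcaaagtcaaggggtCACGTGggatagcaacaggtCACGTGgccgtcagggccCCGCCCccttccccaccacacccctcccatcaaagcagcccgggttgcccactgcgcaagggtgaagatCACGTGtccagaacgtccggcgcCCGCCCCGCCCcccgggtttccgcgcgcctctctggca

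The Cdkn2b window held 1 CRE that began 46 bases before the start and 1 GC box 4 bases after it. A CRE of these letters was present in 1.79% of all 32841 mouse windows. The Cdk4 window held 4 E-boxes, which began 172, 118, 98 and 11 bases before the start, and 3 GC boxes. An E-box was present in 7.15% of windows, and 4 or more of them in 8 windows, or 0.0244%. The cut of 4 equals the number in the Cdk4 window, so this share is a description and not a test. The GC box, by contrast, was found in 35.7% of windows, and also in those of Ccnd3, Cdkn1b and Ccne1. With the same cut, 5.48% of windows held 4 or more GC boxes. Cdk6 had 1 E-box, 220 bases before its start. The other letters searched, TGANTCA for AP-1 and TTTGGCGC and TTTCCCGC for E2F, were found in 7.81%, 0.515% and 1.07% of windows and in none of the members' windows. A match describes letters in a window and is not evidence that a factor binds there.

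Ccnd2 was the most abundant of the D cyclin genes and the one that differed most between matrices (chromosome 6, 127125162 to 127152193, GRCm38). Its libraries had 1257, 1174 and 1378 CPM in non-degradable PEG, 1047, 820.4 and 1110 CPM in degradable PEG, and 743, 759.7 and 702 CPM in Matrigel. The 3 groups did not overlap: every non-degradable library was above every degradable one, and every degradable one was above every Matrigel one. Against Matrigel, Ccnd2 rose by a log2 fold change of 0.79 ± 0.107 (SE, adjusted p = 0.000747) in non-degradable PEG, or 1.73-fold, and by 0.43 ± 0.107 (adjusted p = 0.0226) in degradable PEG, or 1.35-fold. The first difference passed in each of 16 alternative analyses, between 0.73 and 0.84. The second did not pass without Matrigel replicate 1 (adjusted p = 0.0602), without Matrigel replicate 3 (0.0824) or without degradable PEG replicate 3 (0.0885). Between non-degradable and degradable PEG the log2 fold change was 0.36 ± 0.107, with a 95% interval of 0.12 to 0.59 and an adjusted p of 0.161, and it passed with no expression filter (adjusted p = 0.0324).

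**Figure D1:**
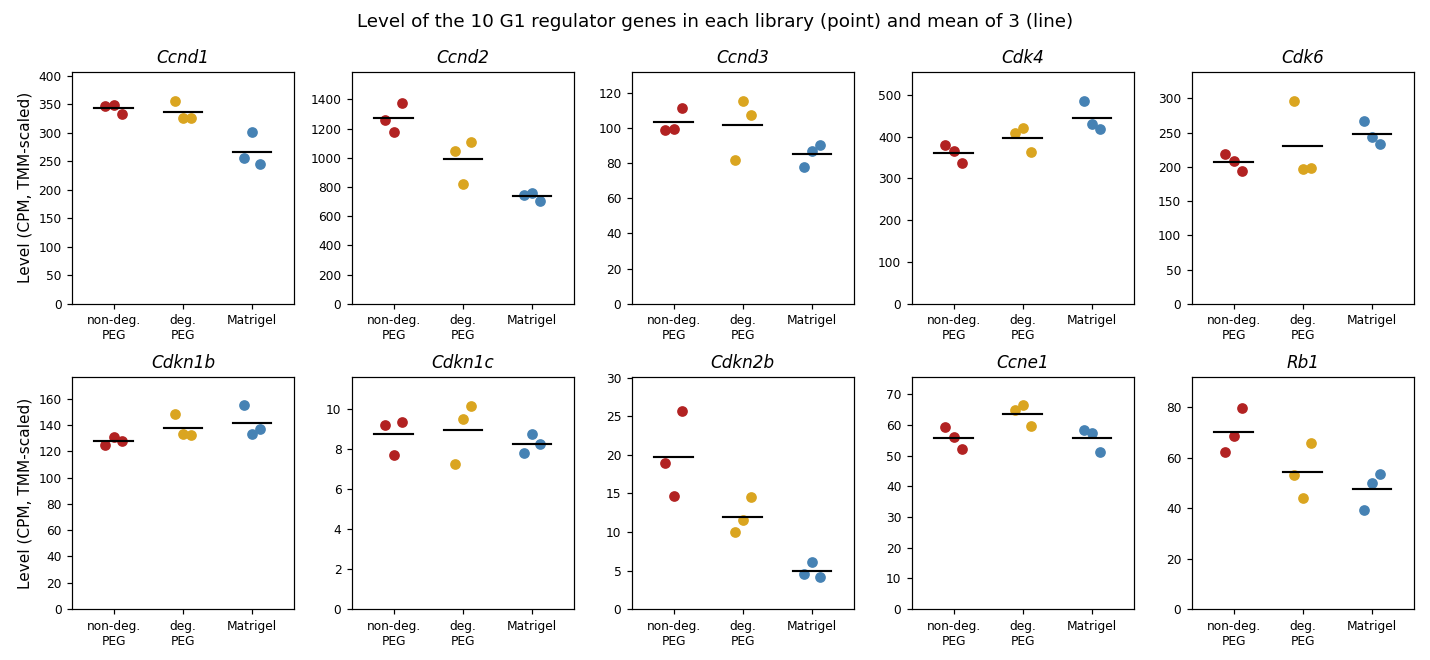
Level of each of the 10 genes (CPM, TMM-scaled, axes from 0) in the 3 libraries of non-degradable PEG, degradable PEG and Matrigel, with 1 point per library in replicate order and a line at the mean of 3. The Ccnd2 and Cdkn2b points of the 3 matrices do not overlap, while Cdkn1c lies between 7.26 and 10.2 CPM throughout.

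Ccnd1, the D cyclin best known as a target of growth factor signalling (chromosome 7, 144929931 to 144939925), was higher in both PEG gels than in Matrigel. It had 346, 349 and 332 CPM in non-degradable PEG and 356, 326 and 326 CPM in degradable PEG, against 255, 300.5 and 244 CPM in Matrigel. Both PEG groups lay wholly above Matrigel and overlapped with each other. The log2 fold change against Matrigel was 0.36 ± 0.0828 (adjusted p = 0.0138) in non-degradable PEG and 0.33 ± 0.0828 (adjusted p = 0.0238) in degradable PEG. The call in non-degradable PEG did not hold without Matrigel replicate 1 (adjusted p = 0.0608) or 3 (0.0585), and that in degradable PEG did not hold without Matrigel replicate 1 (0.0898) or 3 (0.098). Between non-degradable and degradable PEG the difference was 0.03, with a 95% interval of -0.15 to 0.21. Exons of Ccnd1 share 1100 bases with LTO1 on the opposite strand, and the strand setting of the counting is not given in the sources used here. LTO1 itself averaged 21.3 CPM in non-degradable PEG, 21.6 CPM in degradable PEG and 23.5 CPM in Matrigel, with no change called.

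Ccnd3, the least abundant D cyclin gene (chromosome 17, 47505051 to 47599691), had 98.6, 99.4 and 111 CPM in non-degradable PEG, 81.9, 115 and 108 CPM in degradable PEG, and 77.8, 86.9 and 90.3 CPM in Matrigel. The non-degradable libraries lay above the Matrigel ones, while degradable PEG replicate 1 fell within the Matrigel range. The log2 fold change of non-degradable PEG against Matrigel was 0.28 ± 0.116 (adjusted p = 0.121), and it passed with the replicate number as a block (adjusted p = 0.0361) and without degradable PEG replicate 1 (0.0306). Degradable PEG against Matrigel gave 0.26 ± 0.116 (adjusted p = 0.18), and 0.39 (adjusted p = 0.0124) without degradable PEG replicate 1. That library had the highest share of reads outside annotated genes (11.2%, against 7.29% to 10.04% in the other 8). Whether this share bears on the Ccnd3 values was not tested. Non-degradable against degradable PEG differed by 0.02, with a 95% interval of -0.23 to 0.28. Exons of Ccnd3 share 361 bases with Bysl on the opposite strand. Bysl averaged 67.2 CPM in non-degradable PEG, 72.8 CPM in degradable PEG and 67.3 CPM in Matrigel. It was not called changed in either PEG gel against Matrigel.

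Per kilobase of exons, the D cyclins together averaged 219 ± 9.73 CPM per kb in non-degradable PEG, 188 ± 16.4 CPM per kb in degradable PEG and 144 ± 9.07 CPM per kb in Matrigel. Ccnd2 made up 61.4% ± 2.21 of that sum in non-degradable PEG, 55.8% ± 3.96 in degradable PEG and 54.1% ± 1.71 in Matrigel. Its share in non-degradable PEG, 59.4% to 63.8% by library, did not overlap with the 52.3% to 55.6% of Matrigel. Ccnd1 held 33.2% ± 2.31 of the sum in non-degradable PEG, 38.0% ± 3.09 in degradable PEG and 39.1% ± 1.89 in Matrigel. Ccnd3 held 5.36% ± 0.195 in non-degradable PEG, 6.22% ± 1.50 in degradable PEG and 6.73% ± 0.692 in Matrigel (SD, n = 3 each). These shares are descriptions with no test.

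**Figure D2:**
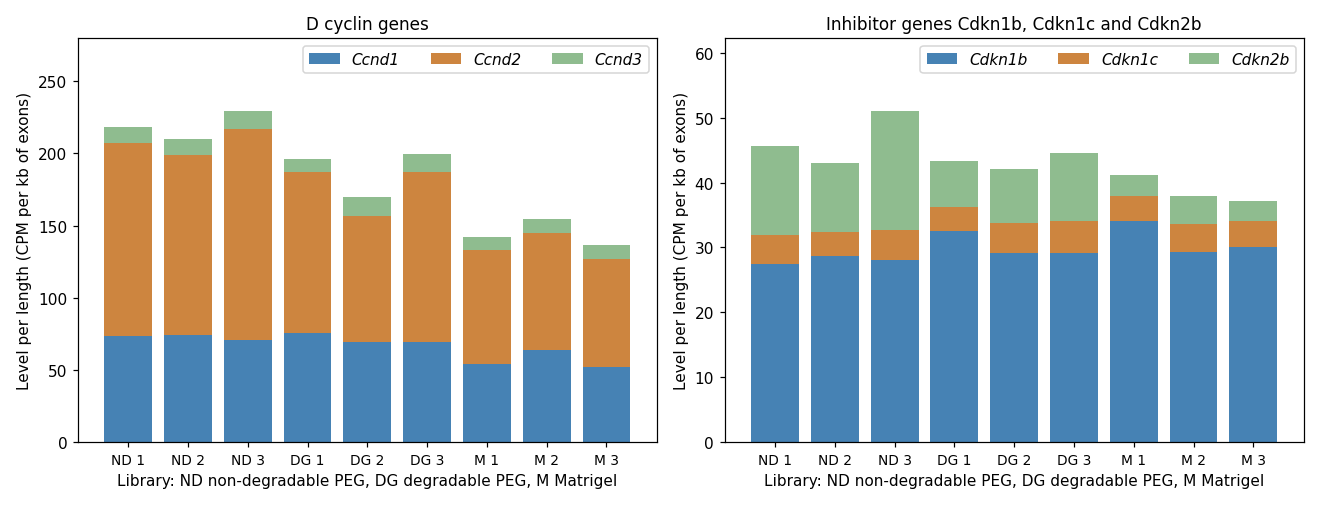
Stacked levels per kilobase of exons (CPM per kb) in each library of non-degradable PEG (ND), degradable PEG (DG) and Matrigel (M), for the D cyclin genes on the left and the genes Cdkn1b, Cdkn1c and Cdkn2b on the right. The D cyclin stacks are tallest in non-degradable PEG, and the Cdkn2b segment takes on average 30.2% of the inhibitor stack in ND, 19.9% in DG and 9.17% in M.

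Cdk4, the partner kinase of the D cyclins (chromosome 10, 127063534 to 127067920), moved the other way. It had 379, 365 and 337 CPM in non-degradable PEG, 408, 422 and 363 CPM in degradable PEG, and 486, 430.1 and 418 CPM in Matrigel. The non-degradable libraries lay below all Matrigel libraries, and the degradable ones overlapped with both. Cdk4 fell by 0.30 ± 0.0841 on the log2 scale in non-degradable PEG against Matrigel (adjusted p = 0.0309), a fold change of 0.81. That call was lost when any of 5 single libraries was left out: Matrigel replicate 1 (adjusted p = 0.116) or 2 (0.0649), or non-degradable PEG replicate 1 (0.0512), 2 (0.0632) or 3 (0.125). Degradable PEG against Matrigel gave -0.16 ± 0.0840 (adjusted p = 0.245), and non-degradable against degradable PEG -0.14 with a 95% interval of -0.33 to 0.04. Cdk4 exons share 641 bases with Tspan31 on the opposite strand, which averaged 142 CPM in non-degradable PEG, 138 CPM in degradable PEG and 142 CPM in Matrigel.

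Cdk6, the second kinase that D cyclins bind (chromosome 5, 3341485 to 3531008), had 218, 208 and 194 CPM in non-degradable PEG, 296, 197 and 198 CPM in degradable PEG, and 266, 243 and 233 CPM in Matrigel. The non-degradable libraries lay below all Matrigel libraries. Degradable PEG replicate 1 was the highest of all 9 libraries, while the other degradable libraries lay below Matrigel. Against Matrigel the log2 fold change was -0.26 ± 0.138 (adjusted p = 0.222) in non-degradable PEG and -0.11 ± 0.138 (adjusted p = 0.672) in degradable PEG. Without degradable PEG replicate 1 both passed, at -0.26 (adjusted p = 0.0291) in non-degradable PEG and -0.33 (adjusted p = 0.0235) in degradable PEG. Non-degradable PEG against Matrigel also passed in the fit of only the 2 compared matrices, at -0.26 (adjusted p = 0.0279). Cdk4 held 88.2% ± 0.0658 of the summed Cdk4 and Cdk6 level per kilobase in non-degradable PEG, 88.2% ± 2.37 in degradable PEG and 88.5% ± 0.152 in Matrigel (SD, n = 3 each).

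Ranked by level per kilobase, Ccnd2 came first in non-degradable PEG with a mean of 135 CPM per kb, above Cdk4 with 111 CPM per kb and Ccnd1 with 72.7 CPM per kb. The libraries of Ccnd2 (125 to 146 CPM per kb) and Cdk4 (104 to 117 CPM per kb) did not overlap there. In degradable PEG Cdk4 averaged 122 CPM per kb and Ccnd2 105 CPM per kb, and their libraries overlapped. In Matrigel Cdk4 stood first with 137 CPM per kb, followed by Ccnd2 with 78.1 and Ccnd1 with 56.6 CPM per kb, with no overlap between Cdk4 and Ccnd2. The order of Ccnd2 and Cdk4 was the same in non-degradable PEG, and likewise in Matrigel, when the longest transcript replaced the union of exons as the length.

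Cdkn2b, which encodes the Cdk4 and Cdk6 inhibitor p15 (chromosome 4, 89306299 to 89311039), showed the largest fold change among the members. It had 19.0, 14.7 and 25.7 CPM in non-degradable PEG, 9.94, 11.5 and 14.5 CPM in degradable PEG, and 4.58, 6.04 and 4.16 CPM in Matrigel. The 3 groups did not overlap, and the counts behind them ran from 179 to 1120 reads. Cdkn2b rose by a log2 fold change of 2.00 ± 0.223 (adjusted p = 0.000249) in non-degradable PEG against Matrigel, or 4.01-fold, and by 1.28 ± 0.222 (adjusted p = 0.00347), or 2.43-fold, in degradable PEG against Matrigel. Both passed in all 16 alternative analyses, with log2 fold changes of 1.77 to 2.18 in non-degradable PEG and of 1.12 to 1.46 in degradable PEG. The size of the first change exceeded that of 98.3% of tested genes. Non-degradable against degradable PEG gave 0.72 ± 0.212 (95% interval 0.26 to 1.19, adjusted p = 0.152), which passed with DESeq2 (adjusted p = 0.0299) and with no expression filter (0.0131).

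Cdkn1b, the gene of p27 (chromosome 6, 134920401 to 134925513), was the most abundant of the 3 inhibitor genes. It had 125, 130.5 and 128 CPM in non-degradable PEG, 148, 133 and 133 CPM in degradable PEG, and 155, 133 and 137 CPM in Matrigel. The non-degradable libraries were the lowest, and the other groups overlapped. The log2 fold change against Matrigel was -0.15 ± 0.0761 (adjusted p = 0.194) in non-degradable PEG and -0.04 ± 0.0760 (adjusted p = 0.784) in degradable PEG. Cdkn1c, the gene of p57 (chromosome 7, 143458339 to 143461050), lay between 7.26 and 10.2 CPM in every library, with overlapping groups. Its log2 fold change against Matrigel was 0.08 in non-degradable PEG (95% interval -0.24 to 0.40) and 0.12 in degradable PEG (-0.20 to 0.44). Counted per kilobase, Cdkn2b took 30.2% ± 5.80 of the 3 inhibitors' summed level in non-degradable PEG, 19.9% ± 3.45 in degradable PEG and 9.17% ± 1.98 in Matrigel, and Cdkn1b took 60.6% ± 5.89 in non-degradable PEG, 70.0% ± 4.98 in degradable PEG and 80.3% ± 2.83 in Matrigel. This sum leaves out the CDK inhibitor genes Cdkn1a, Cdkn2a, Cdkn2c and Cdkn2d. Of these, Cdkn1a had more CPM than Cdkn1b in every library of both PEG gels.

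Ccne1, which encodes the cyclin partner of Cdk2 (chromosome 7, 38097984 to 38107534), had 59.4, 55.9 and 52.3 CPM in non-degradable PEG, 64.7, 66.4 and 59.7 CPM in degradable PEG, and 58.3, 57.2 and 51.2 CPM in Matrigel. The degradable libraries lay above all others by a small margin, and the remaining groups overlapped. Degradable PEG against Matrigel gave a log2 fold change of 0.20 ± 0.0780 (adjusted p = 0.132), and non-degradable against degradable PEG -0.19 ± 0.0780 (adjusted p = 0.304). Non-degradable PEG against Matrigel gave 0.01, with a 95% interval of -0.16 to 0.18.

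Rb1, the gene of the retinoblastoma protein (chromosome 14, 73183673 to 73325822), had 62.2, 68.6 and 79.7 CPM in non-degradable PEG, 53.1, 44.1 and 65.9 CPM in degradable PEG, and 39.5, 49.98 and 53.5 CPM in Matrigel. All non-degradable libraries were above all Matrigel libraries, and degradable PEG overlapped with both. Rb1 rose by a log2 fold change of 0.56 ± 0.153 (adjusted p = 0.0296) in non-degradable PEG against Matrigel. The call was lost without Matrigel replicate 1 (adjusted p = 0.108) or 2 (0.061) and without non-degradable PEG replicate 2 (0.0547) or 3 (0.117). Degradable PEG against Matrigel gave 0.19 ± 0.153 (adjusted p = 0.467), and non-degradable against degradable PEG 0.37 ± 0.152 (adjusted p = 0.301). Rb1 shares 488 exon bases with Rcbtb2 and 408 with Lpar6 on the opposite strand, neither of which was called changed against Matrigel. Rcbtb2 averaged 9.07 CPM in non-degradable PEG, 10.3 CPM in degradable PEG and 12.1 CPM in Matrigel. Lpar6 averaged 36.1 CPM in non-degradable PEG, 40.7 CPM in degradable PEG and 35.6 CPM in Matrigel.

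**Figure D3:**
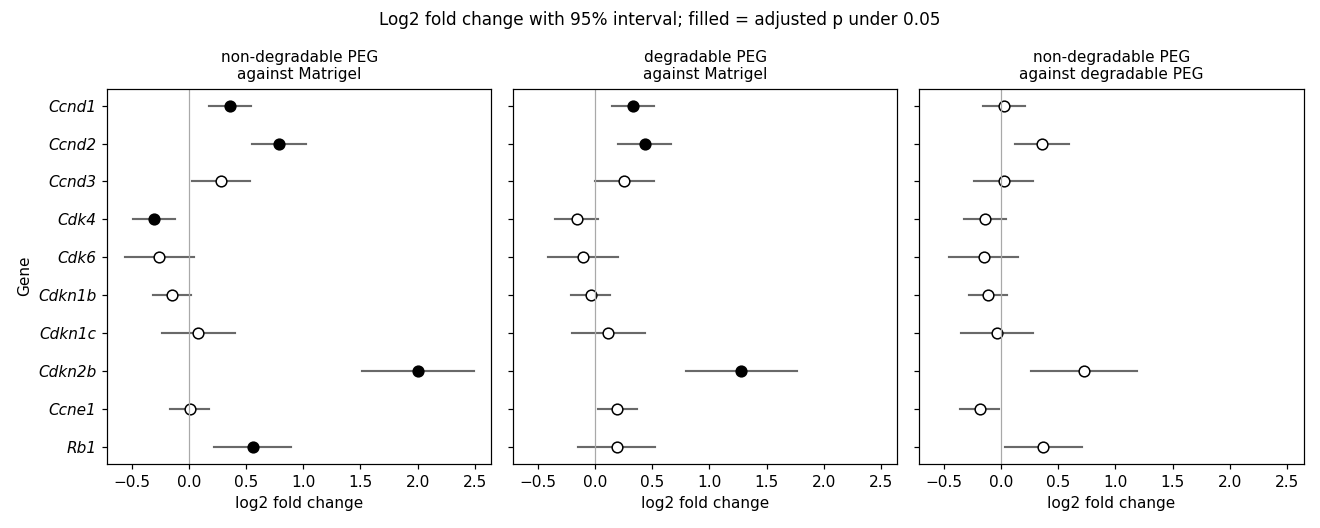
Log2 fold change of each gene (point) with its 95% interval (line) for non-degradable PEG against Matrigel, degradable PEG against Matrigel, and non-degradable against degradable PEG. Filled points have an adjusted p under 0.05 (edgeR quasi-likelihood test), which are 5 of the 10 genes in the left panel, 3 in the middle panel and 0 in the right panel.

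Counted by overlap alone, 5 members lay wholly above and 3 wholly below Matrigel in non-degradable PEG, where 43.4% of all tested genes did not overlap. In degradable PEG against Matrigel the counts were 4 above and 0 below, with 30.4% of all genes not overlapping, and between non-degradable and degradable PEG 2 above and 2 below, with 19.0%. At an unadjusted p under 0.05, 4 members differed between non-degradable and degradable PEG (Ccnd2, Cdkn2b and Rb1 higher, Ccne1 lower), and DESeq2 called 1, Cdkn2b. Of all 14870 tested genes, 2203 had such a p in that comparison and DESeq2 called 509. Within non-degradable PEG, replicate 3 had the highest level of 5 members (Ccnd2, Ccnd3, Cdkn1c, Cdkn2b and Rb1) and the lowest of 4 (Ccnd1, Cdk4, Cdk6 and Ccne1).

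The other CDK inhibitor genes did not follow a single direction. Cdkn1a, which encodes the p53 target p21, had 202, 183 and 250.03 CPM in non-degradable PEG and 172, 195 and 216 CPM in degradable PEG, against 99.8, 151 and 111 CPM in Matrigel, with both PEG groups wholly above Matrigel. It rose by 0.81 ± 0.157 on the log2 scale (adjusted p = 0.00589) in non-degradable PEG and by 0.69 ± 0.157 (adjusted p = 0.0158) in degradable PEG. The call in degradable PEG did not hold without Matrigel replicate 1 (0.06) or 3 (0.0622) or degradable PEG replicate 3 (0.0599).

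Cdkn2a, the neighbour of Cdkn2b that gives both the p16 and the p19Arf transcripts, had 8.61, 9.70 and 10.1 CPM in non-degradable PEG and 7.42, 8.96 and 8.84 CPM in degradable PEG, against 3.18, 3.33 and 2.49 CPM in Matrigel. The counts per gene do not separate its transcripts. Cdkn2a rose by 1.66 ± 0.151 (adjusted p = 0.000103) in non-degradable PEG and by 1.49 ± 0.151 (adjusted p = 0.000204) in degradable PEG against Matrigel, and in each of the 15 alternatives that gave it a value.

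Cdkn2c, which encodes the Ink4 inhibitor p18, was lower in both PEG gels, with 35.3, 33.9 and 30.5 CPM in non-degradable PEG and 37.6, 33.9 and 32.0 CPM in degradable PEG, against 52.3, 44.5 and 41.9 CPM in Matrigel. It fell by 0.48 ± 0.0999 on the log2 scale (adjusted p = 0.00874) in non-degradable PEG and by 0.42 ± 0.0998 (adjusted p = 0.0191) in degradable PEG. In degradable PEG its call did not hold without Matrigel replicate 1 (0.0764) or degradable PEG replicate 2 (0.0554) or 3 (0.0747). Cdkn2d, the gene of p19Ink4d, differed from Matrigel by 0.14 (adjusted p = 0.633) in non-degradable PEG and by 0.16 (adjusted p = 0.602) in degradable PEG.

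Downstream of Rb, 8 of 15 classical E2F target genes fell in non-degradable PEG against Matrigel and 0 rose, with a median log2 fold change of -0.28. That comparison had 7.13% of all tested genes lower and 9.71% higher. Whether the list differs from those rates was not tested. The 3 with the smallest p were the thymidylate synthase gene Tyms (-0.51 ± 0.114, adjusted p = 0.0123), the replication helicase subunit gene Mcm6 (-0.35 ± 0.0803, adjusted p = 0.0136) and the ribonucleotide reductase gene Rrm1 (-0.38 ± 0.0910, adjusted p = 0.0171). Tyms had 72.3, 73.2 and 54.8 CPM in non-degradable PEG, against 99.9, 94.3 and 90.98 CPM in Matrigel, and its groups did not overlap. The count of 8 was 1 without Matrigel replicate 1, 3 without Matrigel replicate 2 and 1 without non-degradable PEG replicate 3. Of the 3 genes named, Mcm6 did not pass without Matrigel replicate 1 (adjusted p = 0.0576) or non-degradable PEG replicate 3 (0.0595), and Rrm1 without Matrigel replicate 1 (0.0664) or 2 (0.0502) or non-degradable PEG replicate 3 (0.0701). In degradable PEG against Matrigel 0 of the 15 were called by edgeR or DESeq2, 3 had an unadjusted p under 0.05 (2 higher and 1 lower) and the median was -0.04. Between non-degradable and degradable PEG all 15 fold changes were below 0 with a median of -0.22, of which edgeR called 0, DESeq2 called 3, and 10 had an unadjusted p under 0.05. Of all 14870 tested genes, 4057 had such a p in degradable PEG against Matrigel and 2203 between the PEG gels.

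**Figure D4:**
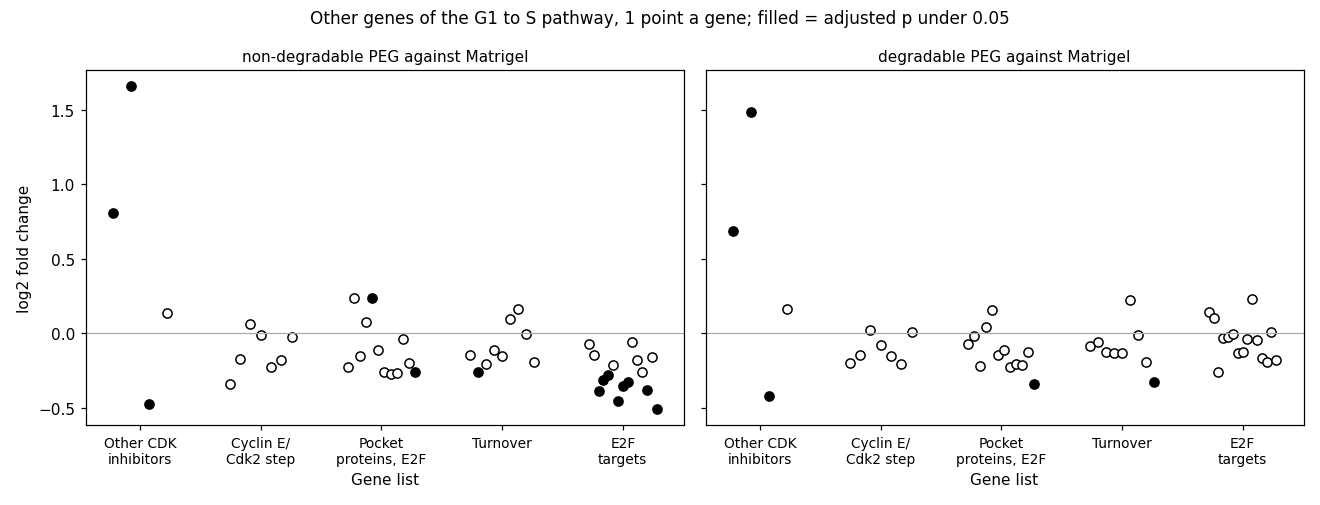
Log2 fold change of the other genes of the G1 to S pathway, 1 point per gene in 5 lists, for non-degradable PEG and degradable PEG against Matrigel. Filled points have an adjusted p under 0.05 (edgeR quasi-likelihood test), and 8 of the 15 E2F target genes are filled for non-degradable PEG and 0 for degradable PEG.

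For the remaining parts of the machinery, counts are given as a description. Against Matrigel, edgeR called 2504 of all 14870 tested genes for the non-degradable gel and 1815 for the degradable gel. Whether any of these parts differs from those rates was not tested. Of 7 genes of the cyclin E and Cdk2 step and the CDK-activating kinase, edgeR called 0 in either PEG gel against Matrigel. In non-degradable PEG 3 of them had an unadjusted p under 0.05, and 2 were called lower by DESeq2 and by edgeR without degradable PEG replicate 1 or 2. In degradable PEG 1 had an unadjusted p under 0.05 and DESeq2 called 0. Such a p was found for 4848 of all 14870 tested genes in non-degradable PEG against Matrigel and for 4057 in degradable PEG. DESeq2 called 1400 of all tested genes lower in non-degradable PEG and 970 lower in degradable PEG. Of 12 genes for other pocket proteins, E2F factors and their DP partners, E2f5, a repressive E2F, rose by 0.24 ± 0.0697 (adjusted p = 0.0404) and Tfdp2, a DP partner, fell by 0.26 ± 0.0758 (adjusted p = 0.0403) in non-degradable PEG against Matrigel. Each of these calls was lost when any single library of Matrigel or of non-degradable PEG was left out (adjusted p of 0.0523 to 0.166), that of E2f5 also without degradable PEG replicate 3 (0.0529) and with no expression filter (0.125), and that of Tfdp2 also with a mean of at least 10 CPM (0.0551). Without degradable PEG replicate 1 or 2, 2 of the 12 fell in non-degradable PEG. In degradable PEG Tfdp2 alone fell, by 0.34 ± 0.0759 (adjusted p = 0.0149), which did not hold without Matrigel replicate 1 (0.0581), and 4 of the 12 fell without degradable PEG replicate 1.

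Of 9 genes that act in the turnover of these proteins, 1 fell in each PEG gel. In non-degradable PEG it was Cks1b, whose product helps the ubiquitin ligase subunit Skp2 to recognise p27, at -0.26 ± 0.0643 (adjusted p = 0.0206). In degradable PEG it was Skp2 itself, at -0.32 ± 0.0801 (adjusted p = 0.023). The Cks1b call did not hold without any 1 Matrigel library or non-degradable PEG replicate 3 (0.059 to 0.101), and the Skp2 call without any 1 Matrigel library or degradable PEG replicate 2 or 3 (0.0625 to 0.0805).

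Among 15 transcription factor genes known to act on D cyclin or inhibitor genes, the same 4 rose in each PEG gel against Matrigel and 0 fell: Fos, Egr1, Myc and, named after its values were seen, Jun. Against Matrigel, 9.71% of all tested genes were higher and 7.13% lower in non-degradable PEG. The shares in degradable PEG were 7.42% higher and 4.79% lower. Myc, whose product is known from human cells to bind E-boxes of CDK4, had 259, 227 and 329 CPM in non-degradable PEG and 272, 381 and 354 CPM in degradable PEG, against 119, 132 and 128 CPM in Matrigel. It rose by 1.10 ± 0.143 (adjusted p = 0.000604) in non-degradable PEG and by 1.41 ± 0.144 (adjusted p = 0.000212) in degradable PEG. Whether Myc acts on Cdk4 in these cells was not tested. Fos, a partner in the AP-1 factor, had 912, 488 and 2139 CPM in non-degradable PEG and 1250.2, 963 and 1608 CPM in degradable PEG, against 4.40, 9.64 and 12.3 CPM in Matrigel. Egr1, an immediate early gene like Fos, averaged 1070.6 ± 491 CPM in non-degradable PEG and 1439 ± 278 CPM in degradable PEG, against 70.5 ± 34.2 CPM in Matrigel (adjusted p = 0.000178 for non-degradable PEG and 0.00014 for degradable PEG). The median log2 fold change over the 15 genes was 0.07 for non-degradable PEG and 0.02 for degradable PEG. Over all 62 genes of the 6 pathway lists, edgeR called 0 between non-degradable and degradable PEG, DESeq2 called 3, and 13 had an unadjusted p under 0.05. Of all 14870 tested genes, edgeR called 190 in that comparison, DESeq2 called 509, and 2203 had such a p.

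The genes whose pattern over the 9 libraries was most like that of a member were ranked by the root mean square difference of centred log2 CPM among 10639 genes, as a description with no test. For Cdkn2b, whose own root mean square deviation was 0.86, these were Gde1 (0.12), Exoc3l4 (0.19) and Ero1l (0.21). For Ccnd2, with a deviation of 0.34, they included Alkbh5 (0.08) and 4931406C07Rik (0.08). For Ccnd1, with a deviation of 0.19, they were Mlkl (0.06), Gramd1b (0.06) and Ldb3 (0.07).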

How the data were processed

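The input was 9 tables of read counts per gene as deposited by the authors, 1 per library. Per the submitters' processing notes, the tools used were cutadapt 1.3, STAR 2.4.2a and HTSeq 0.6.1 on the genome build GRCm38. Per the labels' protocols, RNA came from the RNeasy Micro kit and libraries from the Illumina TruSeq stranded mRNA kit. The annotation and the strand setting used by the counting step were not given in the sources used here. Genes that overlap on opposite strands are therefore uncertain. Each table's 5 tally rows were taken out, and between 7.29% and 11.2% of reads (assigned, ambiguous and without feature) had no feature.

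Symbols, positions and lengths came from GENCODE M21 (46005 of 46517 genes matched). Counts were kept for 14870 genes (filterByExpr), scaled by TMM and tested in 1 edgeR 4.0.16 quasi-likelihood fit of all 9 libraries (R 4.3.3, limma 3.58.1, 6 residual degrees of freedom, median prior 5.17), with Benjamini-Hochberg adjustment over all tested genes. The fit was tested on simulated data. The members, the gene lists and the rule for naming genes were chosen with earlier results of these data known. All members were named, with every gene of the other inhibitors and up to 3 changed genes with the smallest p of each other list. A gene that met the rule for likeness to a member is not reported here. Alternatives were other scalings, DESeq2 1.42.0, no filter, a mean of at least 10 CPM, a replicate block, the 2 compared matrices alone and each library left out. These alternatives were also run for pathway genes, which was added after seeing the data.

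The labels give equal replicate numbers to the matrices without saying what they share. Deviations of same-numbered libraries from their group means correlated at 0.176 to 0.331 over genes for non-degradable PEG and Matrigel, where the numbers were taken to pair the samples by this rule (every pair over 0.1). The main values of that comparison nevertheless come from the fit without a replicate block, which does not use this pairing. The block was run as an alternative. Sequences were RefSeq start site windows (GRCm38.p6). Standard errors are the log2 fold change over the root of the F statistic.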

Additional observations from a re-analysis of the deposited data

How the results depend on the processing

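Of the members, Ccnd2 in non-degradable PEG against Matrigel and Cdkn2b in each PEG gel against Matrigel passed in all 16 alternatives. The median gene shifted by at most 0.0414 (log2) with another scaling. Upper-quartile scaling gave 1291 higher and 535 lower genes in degradable PEG against Matrigel, where TMM scaling gave 1103 and 712, and 1542 and 875 in non-degradable PEG, where TMM scaling gave 1444 and 1060. Cdkn1c was too low for a value with the minimum of 10 CPM. The cause of the changes listed here was not tested.

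For non-degradable PEG against Matrigel, 2504 genes were changed, 1511 with a minimum of 10 CPM, 3877 with the replicate block, and 1189 to 3247 with 1 library left out, and 5 members, or 2 to 7 with 1 library left out. For degradable PEG against Matrigel, 1815 genes were changed, 948 with that minimum, 2783 with the block, and 1086 to 2395 with 1 library left out, and 3 members, or 1 to 5. For non-degradable against degradable PEG, 190 genes were changed, 509 with DESeq2, 521 with no filter, 91 with the minimum, 542 with the block, and 19 to 242 with 1 library left out, and 0 members, or 1 with DESeq2 and 2 with no filter. Over all 3 matrices, 2424 genes were changed, 1362 with the minimum, 3894 with the block, and 1507 to 3109 with 1 library left out, and 3 members, or 5 with DESeq2, 5 with no filter, 6 with the block, and 2 to 5 with 1 library left out.

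In the comparisons that involve degradable PEG, same-numbered libraries correlated at 0.0712 to 0.258 with Matrigel and at 0.0197 to 0.511 with non-degradable PEG. The rule for pairing (every pair over 0.1) was not met there, which does not show that nothing was shared. Against Matrigel 6 of 6 libraries correlated best with their own number, and between the PEG gels 5 of 6 did. With the block, Ccne1 passed in degradable PEG against Matrigel (0.20, adjusted p = 0.0392), and Ccnd3 in non-degradable PEG against Matrigel (0.28, adjusted p = 0.0361). The block changed no other call on a member in the pairwise comparisons.

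Fold changes that turned their sign were those near 0. Ccne1 in non-degradable PEG against Matrigel was -0.00558 with no filter and -0.0538 to 0.0532 with 1 library left out. Cdkn1b in degradable PEG against Matrigel was 0.00217 with upper-quartile scaling and -0.0938 to 0.0322 with 1 library left out. Between non-degradable and degradable PEG, Ccnd3 was -0.00662 with upper-quartile scaling and -0.12 to 0.12 with 1 library left out, Cdk6 -0.26 to 0.0626, Cdkn1c -0.18 to 0.0628, Cdkn1a -0.0174 to 0.22, Cdkn2c -0.11 to 0.00525 and Cdkn2d -0.21 to 0.13. Cdkn2d against Matrigel was -0.0234 to 0.24 in non-degradable PEG.

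With the longest transcript as length, the shares in non-degradable PEG were 90.7% for Cdk4, 9.29% for Cdk6, 28.8% for Ccnd1, 8.38% for Ccnd3 and 9.84% for Cdkn1c. In degradable PEG they were 90.7% for Cdk4, 9.32% for Cdk6, 33.0% for Ccnd1 and 9.75% for Ccnd3, and in Matrigel 91.0% for Cdk4, 9.03% for Cdk6, 34.0% for Ccnd1 and 10.5% for Ccnd3.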
